A study of Mus musculus with 20 samples.

Results

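Livers of male CD-1 mice given only the dosing vehicle were compared after 90 and after 28 days of once-daily dosing. The comparison used the 5 vehicle arrays of the later time and the 5 of the earlier time, 10 of the 20 arrays in the series, chosen by their sample titles and fitted without the other 10. CD-1 is an outbred stock, so its animals differ genetically from one another. The vehicle (CMC in the labels) was methylcellulose 15 given by mouth at a compound dose of 0 mg/kg/day, and the labels name no allele, transgene or other agent. The other 10 mice received phenobarbital sodium (PB) at 80 mg/kg/day for 28 or 90 days, 5 per time, and appear here only as a separate set of animals sampled at the same 2 durations. Each array held RNA of the left lateral lobe of 1 mouse, taken the day after the last dose. The ages at sampling and the hour of necropsy are not given in the sources used here. Age, duration of vehicle dosing and sampling occasion differed together between the groups and cannot be told apart.

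The adult liver is built mainly of hepatocytes, which make plasma proteins, bile acids, cholesterol and fatty acids. Kupffer cells, the resident macrophages, line its sinusoids together with endothelial and stellate cells. Cholesterol and fatty acid synthesis are driven by the sterol regulatory element-binding proteins SREBP-2 and SREBP-1c, and many hepatic transcripts follow a daily rhythm set by the clock genes and by feeding. In a whole-lobe sample, fewer cells of a type and less RNA per cell cannot be told apart. The values are log2 RMA intensities, and every difference is the 90-day mean minus the 28-day mean with its standard error, in log2 units, so 1 unit is a doubling. A gene is called here when its Benjamini-Hochberg adjusted p in limma is below 0.05.

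No gene was called between 90-day and 28-day vehicle livers. Of 15617 genes tested, 0 (0%) passed the adjusted threshold, and the smallest adjusted p in limma was 0.328. At an unadjusted p below 0.05 there were 2357 genes (15.1% of those tested), against 781 if all p-values were evenly spread. Of these, 1361 (8.71%) were higher and 996 (6.38%) lower at 90 days, and the median difference over all tested genes was -0.02. All 5 livers of one time lay above all 5 of the other for 218 genes higher at 90 days (1.4%) and for 148 lower (0.948%). Centring each array on its 75th percentile moved the median of all genes to -0.14 and the split to 588 higher and 2474 lower. The balance of directions over all genes therefore depended on the scaling. The shares of 8.71% higher and 6.38% lower are the background for list counts at an unadjusted p below 0.05 with all vehicle arrays.

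A pair of 28-day arrays stood apart, and the count of genes at an unadjusted p below 0.05 was much lower without it. The first principal component of the 10 vehicle arrays held 45.4% of their variance. The 28-day livers had scores of -48.9, 10.8, -52.9, -9.3 and 15.7 in replicates 1 to 5, and the 90-day livers 1.3, 26.7, 26.7, 17.6 and 12.3. Replicates 1 and 3 at 28 days were far below the others, and the group means differed with an exact two-sided permutation p of 0.0476, or 0.0635 after adjustment over the 4 array measures tested (smallest possible 0.00794). The 75th percentile of the array was 6.98 ± 0.08 (SD, n = 5) at 28 days and 7.10 ± 0.06 at 90 days, with an exact permutation p of 0.0238 and an adjusted value of 0.0635. Without replicates 1 and 3, the genes at an unadjusted p below 0.05 numbered 295 higher (1.89%) and 278 lower (1.78%). This fit has fewer 28-day arrays, and the part of that in the lower counts was not tested. Removing 90-day replicate 3 alone also lowered the counts, to 764 and 639. With the component as a covariate the genes numbered 279 (1.79%) and 174 (1.11%). The component was computed from these same arrays and its group means differed. As a covariate it therefore takes up part of any duration difference. The background for list counts without the pair is 1.89% higher and 1.78% lower. The gene lists are also given without this pair because it stood apart. Single genes that passed the unadjusted threshold are given without it where their difference moved by over 1.5 times or no longer passed. What set the pair apart was not tested. The mean over the list of secreted hepatocyte proteins was lowest on the same arrays, at 13.81 and 13.70, and between 13.99 and 14.11 on the other 8. Of their 29 tested transcripts, 0 passed an unadjusted p below 0.05 in either direction, and the median difference was 0.09, or 0.03 without the pair.

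**Figure D1:**
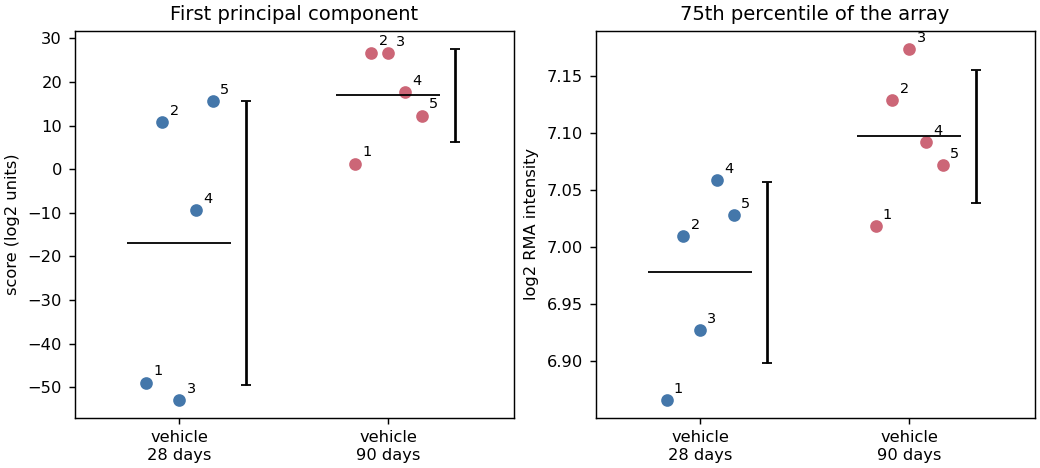
First principal component score (left, log2 units) and 75th percentile of intensity (right, log2) for the 10 vehicle arrays, with replicate numbers. Points are mice, horizontal lines are group means and vertical bars 1 SD. Replicates 1 and 3 at 28 days have scores of -48.9 and -52.9, below every other array.

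Among single genes, the metabolic enzyme Glo1 had the smallest p. Glo1 encodes glyoxalase 1, which detoxifies methylglyoxal, a by-product of glycolysis. It read 12.27, 12.73, 12.16, 12.97 and 12.51 in the 28-day livers and 13.35, 13.84, 13.75, 13.24 and 13.98 in the 90-day livers. All 5 later livers lay above all 5 earlier ones. The difference was 1.10 ± 0.18, or 2.15-fold (unadjusted p = 4.25e-05, adjusted p in limma = 0.328), and 0.89 without 28-day replicates 1 and 3. All 4 Glo1 probe sets were higher, by 1.05 to 1.67. In the phenobarbital mice Glo1 was higher by 0.69 ± 0.38 (unadjusted p = 0.0949).

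Ddah1, which breaks down the nitric oxide synthase inhibitor dimethylarginine, read 9.51 to 10.82 at 28 days and 10.93 to 11.48 at 90 days. Its groups did not overlap, with a difference of 1.15 ± 0.22 and 0.82 without the pair, and all 5 of its probe sets were higher. Dhtkd1, a mitochondrial enzyme of lysine breakdown, read 9.48 to 10.31 and then 10.51 to 11.14, a difference of 0.95 ± 0.19. Odr4 and Etl4 were higher by 1.07 ± 0.20 and 0.86 ± 0.16, again with no overlap. Myh10, a nonmuscle myosin heavy chain, was higher by 0.93 ± 0.18, and Adgra3, an adhesion receptor, by 1.01 ± 0.22. For Odr4, Etl4, Myh10 and Adgra3, the remaining probe sets differed by between -0.17 and 0.20, so their differences rested on 1 probe set each. None of these genes was called, each with an adjusted p in limma of 0.328.

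The genes lower at 90 days with the smallest p were of mixed kinds and included S100a8 of neutrophils and Pf4 of platelets. S100a8, a calcium-binding protein that neutrophils store in quantity, read 6.13, 5.64, 6.59, 5.97 and 7.10 at 28 days and 5.64, 5.01, 4.99, 5.08 and 5.25 at 90 days. The groups touched without overlapping, and the difference was -1.09 ± 0.24 (unadjusted p = 0.000576), or -1.04 without 28-day replicates 1 and 3. In the phenobarbital mice S100a8 had means of 11.35 at 28 days and 11.48 at 90 days, a difference of 0.13 ± 1.47. Pf4, platelet factor 4, was lower by 0.65 ± 0.15 on the log2 scale. The unnamed transcript 9030619P08Rik read 7.97 to 9.74 at 28 days and 6.65 to 7.76 at 90 days, a difference of -1.53 ± 0.34 with no overlap. Srprb, a subunit of the receptor that docks ribosomes to the endoplasmic reticulum, gave -1.03 ± 0.23 and -1.18 by a pair of its probe sets but 0.53 by the third. The low-intensity genes 4930419G24Rik, Zfp605 and Acer1 differed by -0.49, -0.50 and -0.48, each without overlap between groups. Elobl and Gm9706 differed by -0.87 and -0.47, also without overlap.

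Genes of cholesterol synthesis were mostly higher at 90 days. Of 22 tested members of the pathway list, 18 had a higher mean, the median difference was 0.28 against -0.02 over all genes, and 7 (31.8%) passed an unadjusted p below 0.05, all higher, where 8.71% of all genes did. None was called. The list's median was 0.28 also without 28-day replicates 1 and 3. There 5 members passed the unadjusted threshold, all higher, where 1.89% of all genes did. The median was 0.24 with the first component as a covariate. Its sign was the same under each of the 23 alternatives run, with medians between 0.16 and 0.39.

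Along the pathway, the entry enzyme Hmgcs1, which makes HMG-CoA, read 12.60, 13.23, 12.63, 13.20 and 12.99 at 28 days and 13.51, 13.46, 13.58, 13.27 and 13.19 at 90 days. The highest 28-day liver lay above the lowest 90-day liver, and the difference was 0.47 ± 0.14 (unadjusted p = 0.00651), or 0.26 without the pair. Fdft1, squalene synthase, which commits the pathway to sterols, read 11.05, 11.89, 11.36, 11.23 and 11.14 at 28 days and 12.01, 11.94, 12.47, 11.95 and 11.69 at 90 days. A single 28-day liver reached the later range, and the difference was 0.68 ± 0.18 (unadjusted p = 0.00262), or 0.59 without the pair (unadjusted p = 0.0146).

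Sqle, squalene epoxidase, was higher by 0.52 ± 0.24 (unadjusted p = 0.0499), with groups that overlapped widely, and by 0.29 without the pair (unadjusted p = 0.244). Lss, lanosterol synthase, which closes the sterol ring, read 8.76, 9.54, 9.41, 9.38 and 9.19 and then 10.07, 9.50, 10.00, 9.97 and 9.53. The difference was 0.55 ± 0.18, and 3 of 5 later livers lay above all earlier ones. Nsdhl and Hsd17b7 act in consecutive steps of the process that removes methyl groups from sterols after lanosterol. Nsdhl read 10.68, 11.20, 10.64, 10.95 and 10.88 and then 11.60, 11.01, 11.54, 11.32 and 11.22, a difference of 0.47 ± 0.15, or 0.33 without the pair (unadjusted p = 0.0562).

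Hsd17b7 had the smallest p of the list and read 9.45, 10.28, 9.67, 9.96 and 9.63 at 28 days and 11.05, 10.39, 10.75, 10.81 and 10.28 at 90 days. The groups met only at 10.28, and the difference was 0.86 ± 0.19, or 1.81-fold (unadjusted p = 0.000693), and 0.70 without the pair (unadjusted p = 0.00546). Dhcr7, the last enzyme of the pathway, was higher by 0.55 ± 0.18, and by 0.31 without the pair (unadjusted p = 0.0486). Members below the threshold included Cyp51 at 0.29 ± 0.22 and Insig1, which holds the SREBP proteins in the endoplasmic reticulum, at 0.26 ± 0.20. Srebf2, which encodes SREBP-2, differed by -0.02 ± 0.15, and Insig2 by -0.48 ± 0.24.

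The promoters of these genes are shown because the members of the pathway had higher means together. SREBP-2 is known to act on them with the factor NF-Y, which binds the CCAAT box. The windows are the 250 bases upstream of the RefSeq start on GRCm38.p6, 5′ to 3′ on the gene's strand. Capitals mark CCAAT on either strand (written ATTGG when reversed) and, in Hmgcs1 alone, a match to the sterol regulatory element TCACNCCAC. They cover Hmgcs1 at chr13:119690101-119690350 (plus strand), Lss at chr10:76531355-76531604 (plus strand), Nsdhl at chrX:72918271-72918520 (plus strand) and Hsd17b7 at chr1:169969206-169969455 (minus strand).

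Hmgcs1: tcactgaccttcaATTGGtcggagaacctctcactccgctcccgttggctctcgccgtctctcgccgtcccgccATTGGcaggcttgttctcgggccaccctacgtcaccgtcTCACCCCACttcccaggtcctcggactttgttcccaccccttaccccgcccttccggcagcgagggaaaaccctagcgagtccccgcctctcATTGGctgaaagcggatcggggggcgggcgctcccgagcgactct
Lss: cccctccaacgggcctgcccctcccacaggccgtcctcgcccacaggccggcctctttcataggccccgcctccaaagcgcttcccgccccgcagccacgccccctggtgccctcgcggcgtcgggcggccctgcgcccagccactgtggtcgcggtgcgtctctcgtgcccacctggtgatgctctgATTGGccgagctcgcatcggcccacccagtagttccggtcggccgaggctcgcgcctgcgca
Nsdhl: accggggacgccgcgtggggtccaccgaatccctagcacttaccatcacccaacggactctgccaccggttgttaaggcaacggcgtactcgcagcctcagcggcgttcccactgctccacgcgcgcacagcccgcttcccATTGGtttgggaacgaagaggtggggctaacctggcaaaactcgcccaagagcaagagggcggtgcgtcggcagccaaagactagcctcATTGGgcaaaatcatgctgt
Hsd17b7: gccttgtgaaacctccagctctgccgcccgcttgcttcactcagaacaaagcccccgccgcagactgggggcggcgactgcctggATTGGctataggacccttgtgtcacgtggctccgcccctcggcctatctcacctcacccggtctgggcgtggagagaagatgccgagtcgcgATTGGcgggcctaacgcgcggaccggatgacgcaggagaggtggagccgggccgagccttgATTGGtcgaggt

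CCAAT on either strand was found in 18 of 23 windows of the cholesterol list (78.3%), which come from 18 genes. It was found in 11120 of 32851 windows of the same length in the whole table (33.8%), in 22 of 39 lipogenesis windows (56.4%) and in 9 of 31 macrophage windows (29%). The 3 copies in Hsd17b7 began at -165, -73 and -12 from the start, and the copy in Lss at -62. The element TCACNCCAC, searched on both strands, was found in 1 of 23 cholesterol windows against 346 of all windows (1.05%). The E-box CACGTG was found in 4 of 23, against 1978 of all windows (6.02%). A match describes the letters only, and windows of genes with several starts are not independent. The motif counts do not depend on the expression values of these livers. Whether SREBP-2 or NF-Y had a part in the differences was not tested.

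Genes of fatty acid and triglyceride synthesis were also mostly higher at 90 days, but more of this difference went with the pair of arrays. Of 35 tested members 31 had a higher mean, with a median of 0.41. Of these, 15 (42.9%, against 8.71% of all genes) passed an unadjusted p below 0.05 in the higher direction and 1, Cidea, in the lower (-0.28, or -0.22 without 28-day replicates 1 and 3, unadjusted p = 0.107). None was called. Without 28-day replicates 1 and 3 the median was 0.17 and 3 passed, all higher, where 1.89% of all genes did.

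Acacb, the mitochondrial acetyl-CoA carboxylase whose product blocks fatty acid entry, read 7.93, 8.68, 8.0, 8.38 and 8.46 at 28 days and 9.80, 8.94, 9.48, 9.20 and 8.70 at 90 days. The groups did not overlap by a narrow margin, with a difference of 0.94 ± 0.22 (unadjusted p = 0.000987) and 0.72 without the pair (unadjusted p = 0.00915). Acss2, which makes acetyl-CoA from acetate, read 11.53, 11.15, 10.29, 11.41 and 10.81 and then 12.64, 11.95, 12.11, 11.29 and 11.38. Its groups overlapped, and the difference was 0.84 ± 0.28, or 0.75 without the pair (unadjusted p = 0.0231). Pparg, a nuclear receptor that drives lipid storage, read 6.43, 6.89, 6.23, 6.50 and 6.23 and then 7.63, 6.90, 7.13, 6.84 and 7.20. The difference was 0.68 ± 0.18, and 0.60 without the pair (unadjusted p = 0.0146). These 3 genes were the members that passed without the pair.

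Acly, which makes cytosolic acetyl-CoA from citrate, was higher by 0.51 ± 0.20, and Acaca, the cytosolic carboxylase, by 0.81 ± 0.25. Without the pair these were 0.36 and 0.45, and neither passed (unadjusted p = 0.133 and 0.0557). Fasn, fatty acid synthase, read 8.74 to 11.39 at 28 days and 10.20 to 11.23 at 90 days, so the earlier livers spanned the later ones. Its difference of 0.86 ± 0.39 was 0.34 without the pair. Pklr, the liver pyruvate kinase, differed by 0.68 ± 0.29 and by 0.39 without the pair. Scd1 and Srebf1 did not pass, at 0.52 ± 0.33 and 0.61 ± 0.32, and were 0.06 and 0.17 without the pair. Pnpla3 differed by -0.24 ± 0.27.

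**Figure D2:**
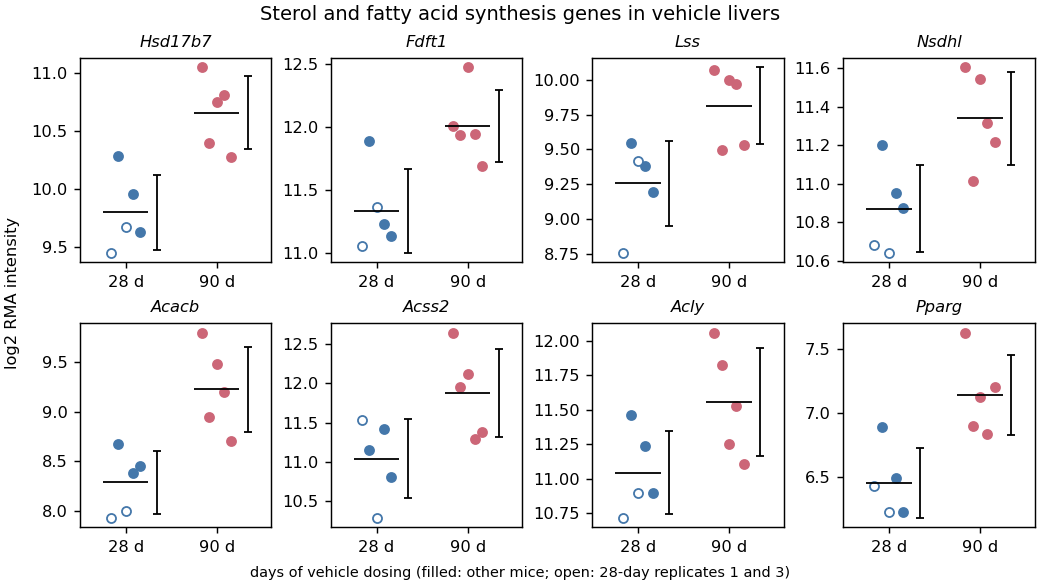
Log2 RMA intensity of 4 cholesterol synthesis genes (top) and 4 genes of lipid synthesis (bottom) in vehicle livers at 28 and 90 days. Points are mice, open points are 28-day replicates 1 and 3, lines are means and bars 1 SD. Hsd17b7 differed by 0.86 and Acacb by 0.94. Both open points lie below the other 28-day points for Nsdhl and Acacb. For Hsd17b7, Fdft1 and Lss replicate 1 is the lowest of its group and replicate 3 lies among the filled 28-day points. For Acss2 replicate 1 is the highest of its group and replicate 3 the lowest.

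Enzymes that supply NADPH and antioxidant genes controlled by Nrf2 had a median of 0.34 over 24 tested members, with 9 (37.5%) higher and 2 (8.33%) lower at an unadjusted p below 0.05, against 8.71% and 6.38% of all genes, and none called. Tkt, transketolase, read 11.24 to 12.07 and then 12.08 to 12.47 with no overlap, a difference of 0.66 ± 0.17 (0.40 without the pair). Pgd, 6-phosphogluconate dehydrogenase, read 8.37 to 9.17 and then 9.27 to 10.04, a difference of 0.66 ± 0.20, also without overlap (0.39 without the pair, unadjusted p = 0.045). Srxn1, sulfiredoxin, read 8.09, 7.99, 8.05, 7.99 and 7.80 and then 8.60, 8.15, 8.52, 8.16 and 8.45. Its difference of 0.39 ± 0.14 was 0.45 without the pair (unadjusted p = 0.0115). Keap1, the inhibitor of Nrf2, was higher by 0.51 ± 0.17, and by 0.29 without the pair (unadjusted p = 0.0542). The members in the lower direction were Slc7a11, a cystine transporter close to background, at -0.32 ± 0.10, and Hmox1, heme oxygenase 1, at -0.52 ± 0.19 (-0.51 without the pair, unadjusted p = 0.0537). Hmox1 also belongs to the macrophage list. Without the pair the list's median was 0.22, with 5 members higher and 1 lower.

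Fatty acid oxidation genes, targets of the receptor PPAR alpha, had a median of 0.26 over 31 members. In this list 9 (29%) were higher and 0 lower at an unadjusted p below 0.05, against 8.71% and 6.38% of all genes. Without the pair the median was 0.18 and 2 were higher. Those were Acaa1b, a peroxisomal thiolase, at 0.61 ± 0.17 (0.38 without the pair), and Cpt2, which completes fatty acid entry into mitochondria, at 0.63 ± 0.19 (0.42). The mitochondrial enzymes Acaa2, Acadvl, Hadha and Hadhb were higher by 0.40, 0.39, 0.38 and 0.34, and by 0.20, 0.19, 0.18 and 0.18 without it. Cyp4a14, an omega-hydroxylase that PPAR alpha induces strongly, went the other way at -1.44 ± 1.20 with a wide spread, from 5.97 to 11.63 at 28 days and from 5.80 to 10.85 at 90 days. In the phenobarbital mice the list's median was 0.04, with 0 higher and 2 lower.

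Most markers of Kupffer cells and other macrophages had lower means at 90 days, but not all passed the unadjusted threshold. Of 32 tested members 28 had a lower mean, with a median of -0.49, and 9 (28.1%) passed an unadjusted p below 0.05, all lower, where 6.38% of all genes did. None was called. Without 28-day replicates 1 and 3 the median was -0.31. There 2 members passed the unadjusted threshold, both lower, where 1.78% of all genes did. The median was -0.04 with the first component as a covariate, which takes up part of any duration difference. The summed linear intensity of the list ran from 10180 to 21550 at 28 days and from 10850 to 15500 at 90 days, so the groups overlapped.

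Lyz2, the lysozyme of macrophages and neutrophils, read 10.02, 8.01, 9.60, 8.92 and 7.65 at 28 days and 8.08, 6.30, 6.55, 7.30 and 7.16 at 90 days. Of the later livers 4 of 5 lay below all earlier ones. The difference was -1.76 ± 0.45, or 3.4-fold (unadjusted p = 0.00184), and -1.12 without the pair (unadjusted p = 0.0158). Lyz1, a near-identical copy whose probes may bind both transcripts, gave -1.64 ± 0.42, and -1.08 without the pair. Fcgr3, an Fc receptor of phagocytes, read 7.71, 6.70, 8.33, 8.08 and 6.08 and then 6.58, 5.76, 5.74, 6.60 and 6.49. Its 28-day livers split into 3 above 7 and 2 below, and the difference of -1.15 ± 0.39 was -0.72 without the pair.

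Tyrobp, a signalling adaptor of myeloid cells, and Ccl6, a chemokine, differed by -1.14 ± 0.41 and -1.26 ± 0.41. Without the pair these were -0.62 and -0.80, and neither passed (unadjusted p = 0.119 and 0.0737). Folr2, a folate receptor of tissue macrophages, read 7.76, 7.11, 7.59, 8.04 and 6.94 and then 7.34, 6.39, 6.19, 6.99 and 7.02, a difference of -0.70 ± 0.26, or -0.58 without the pair (unadjusted p = 0.086). The markers that define Kupffer cells most sharply did not pass the unadjusted threshold. Clec4f, a lectin of Kupffer cells, read 9.73, 8.95, 9.87, 10.09 and 8.17 and then 9.36, 8.37, 8.02, 9.14 and 8.87, a difference of -0.61 ± 0.36. Vsig4, Timd4 and C1qb differed by -0.94 ± 0.44, -0.64 ± 0.42 and -0.59 ± 0.31. Adgre1, which encodes F4/80, and Csf1r, the receptor for the macrophage growth factor, differed by -0.23 ± 0.24 and -0.10 ± 0.27.

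The lists of other blood cells were shorter. Of 15 neutrophil markers tested 3 (20%, against 6.38% of all genes) were lower and 0 higher at an unadjusted p below 0.05. They were S100a8, S100a9 at -0.85 ± 0.26 (-0.79 without the pair) and Camp at -0.28 ± 0.11 (-0.21 without the pair, unadjusted p = 0.138). The median was -0.23, or -0.09 without the pair. The T and NK cell list had a median of -0.11, or -0.12 without the pair. Of its 19 markers 3 (15.8%) were lower, against 6.38% of all genes. They were Gzma, lower by 0.57 ± 0.21, Cd3d, by 0.54 ± 0.21, and Gzmb, by 0.45 ± 0.20 on the log2 scale. Without the pair these were -0.29, -0.31 and -0.32, and none passed. Among 18 B cell and MHC class II markers 4 (22.2%) were lower and 1, Ighm, was higher, against 6.38% and 8.71% of all genes. The median of these markers moved from -0.17 to 0.02 without the pair. There 3 were lower, where 1.78% of all genes were, and 0 higher. Ighm, the immunoglobulin mu chain, read 8.37, 7.71, 8.43, 8.0 and 8.84 at 28 days and 9.73, 10.97, 10.47, 8.32 and 7.79 at 90 days. A group of 3 later livers lay above all earlier ones and 2 did not, for a difference of 1.18 ± 0.52, or 1.27 without the pair (unadjusted p = 0.0774). Of the endothelial (35 tested) and cholangiocyte (17 tested) markers 0 passed in either direction.

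**Figure D3:**
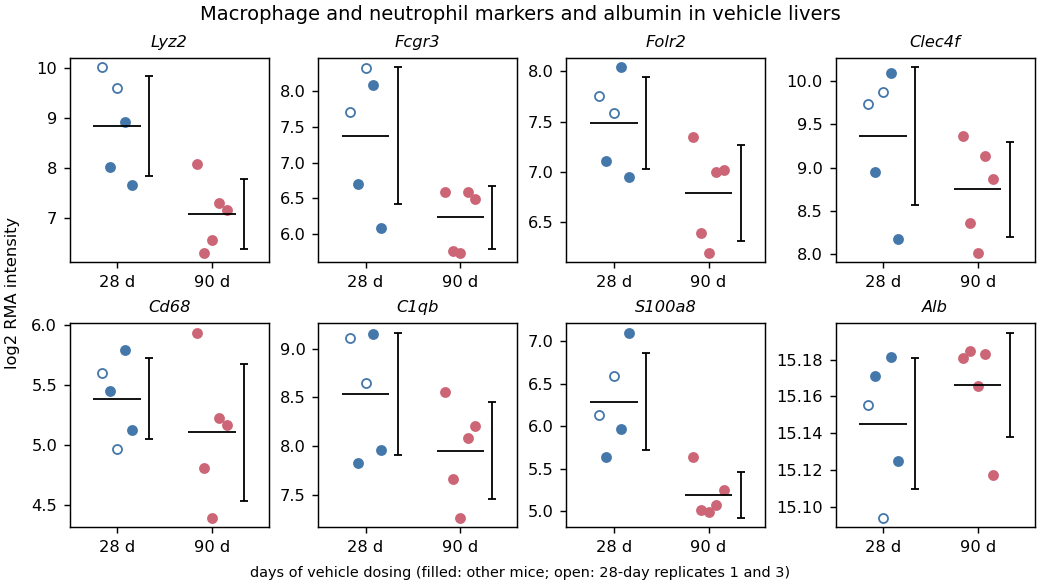
Log2 RMA intensity of 6 macrophage markers, the neutrophil gene S100a8 and the hepatocyte gene Alb in vehicle livers at 28 and 90 days. Points are mice, open points are 28-day replicates 1 and 3, lines are means and bars 1 SD. Lyz2 differed by -1.76 and Cd68 by -0.28, and Alb stayed between 15.09 and 15.18.

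For transcripts of the cytosolic ribosome and the respiratory chain, the differences were smaller without the array pair. The ribosomal list had a median of -0.21 over 42 tested members, 10 (23.8%, against 6.38% of all genes) of them lower at an unadjusted p below 0.05. Without 28-day replicates 1 and 3 the median was -0.08 and 0 passed. Rpl22 read 13.60, 13.09, 13.84, 13.56 and 13.10 and then 13.02 to 13.07, so the later livers were nearly equal while the earlier ones reached 13.84. Its difference of -0.40 was -0.21 without the pair (unadjusted p = 0.103). Rps3 differed by -0.55 ± 0.20, and by -0.28 without the pair. The respiratory chain list had a median of -0.16 over 68 members, 51 of them with a lower mean. At an unadjusted p below 0.05 there were 7 higher (10.3%) and 4 lower (5.88%), close to the shares over all genes of 8.71% and 6.38%. Ndufv1, a subunit of complex I, was among the higher ones at 0.39 ± 0.14, and Uqcrh, a subunit of complex III, among the lower at -0.51 ± 0.23. Without the pair these were 0.21 and -0.15 and neither passed (unadjusted p = 0.0693 and 0.428). In the list 1 was then higher and 0 lower, and the median was -0.01.

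Among hepatocyte functions, Cyp1a2 had the smallest p of the P450 list. Cyp1a2, a caffeine-oxidising P450 of hepatocytes around the central vein, read 11.95, 12.50, 11.92, 12.16 and 12.12 and then 12.76, 12.90, 12.66, 12.49 and 12.89. The difference was 0.61 ± 0.13 (unadjusted p = 0.000587), or 0.48 without the pair (unadjusted p = 0.00427), and 4 of 5 later livers lay above all earlier ones. Of 36 P450 genes 5 (13.9%) were higher and 2 (5.56%) lower, against 8.71% and 6.38% of all genes, so the lower share was at background. The list's median was 0.14, and 0.04 without the pair, with 4 higher and 2 lower. Cyp3a13 was among those lower and read 9.55 to 10.90 and then 8.92 to 10.32, a difference of -0.83 ± 0.32 that was -0.82 without the pair (unadjusted p = 0.0342). Of 24 genes of pericentral hepatocytes 4 (16.7%) were higher, against 8.71% of all genes. Gulo, the last enzyme of vitamin C synthesis, was among them at 0.48 ± 0.15 (0.32 without the pair). So was Oat, ornithine aminotransferase, at 0.67 ± 0.26 (0.50 without the pair, unadjusted p = 0.0764). The median was 0.23, and 0.11 without the pair, with 2 higher. Of 26 periportal genes 0 were higher and 2 (7.69%) lower, near the all-gene share, with medians of 0.06 and then -0.01.

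Bile acid genes had a median of 0.29, which was 0.03 without the pair. Of 26 tested, 5 (19.2%) were higher and 1 (3.85%) lower, against 8.71% and 6.38% of all genes. Without the pair 2 were higher, where 1.89% of all genes were. The export pump Abcc3 read 8.89 to 10.18 and then 10.06 to 10.95, a difference of 0.91 ± 0.27 (0.46 without the pair, unadjusted p = 0.0304). Cyp8b1, which sets the share of cholic acid, was higher by 0.47 ± 0.17 (0.32 without the pair, unadjusted p = 0.0786), and Cyp7a1, the rate-limiting enzyme, differed by 0.64 ± 0.46. Cyp39a1, an oxysterol hydroxylase, read 5.75 to 8.34 and then 4.88 to 6.38, a difference of -1.23 ± 0.46, or -0.73 without the pair (unadjusted p = 0.128). Ephx2, soluble epoxide hydrolase, was higher by 0.48 ± 0.12 (0.35 without the pair, unadjusted p = 0.0101).

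Sex-biased genes are driven in mouse liver by the pulses of growth hormone that follow puberty. Of 24 male-biased genes 5 (20.8%) were higher and 1 (4.17%) lower, against 8.71% and 6.38% of all genes. Their median was 0.26, and 0.19 without the pair, with 3 higher. Of 23 female-biased genes 1 (4.35%) was higher and 2 (8.7%) lower, near the all-gene shares, with medians of -0.11 and then -0.05. Susd4 read 7.67 to 8.15 and then 7.95 to 9.25, a difference of 0.80 ± 0.21 (0.73 without the pair, unadjusted p = 0.0142). Adam11 and Cyp2d9 were higher by 0.64 ± 0.19 and 0.47 ± 0.15, and without the pair by 0.52 and 0.21, where Cyp2d9 no longer passed (unadjusted p = 0.0526). The standard male markers did not pass: Cyp4a12a differed by 0.37 ± 0.24, Elovl3 by 0.09 ± 0.61 and Hsd3b5 by 0.17 ± 0.17. The growth hormone and IGF list had one of the higher medians, 0.36 with 16 of 21 means higher, but 2 (9.52%) passed, near the all-gene share, and the median was 0.05 without the pair. Igf1, the main hormone made under growth hormone control, read 13.02 to 13.32 and then 13.05 to 13.28, a difference of 0.00 ± 0.09. Igfals, which carries it in plasma, was higher by 0.47 ± 0.19, and by 0.28 without the pair (unadjusted p = 0.15).

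Of the standard markers of fetal and growing liver, Afp and Igf2 did not pass the unadjusted threshold. Afp, the fetal albumin, lay 0.58 log2 units above the 25th percentile of the array at 28 days and differed by -0.02 ± 0.14. Igf2 differed by -0.09 ± 0.10. Of 20 tested fetal hepatocyte and oncofetal genes 1 (5%) was higher and 1 (5%) lower, against 8.71% and 6.38% of all genes. The lower member was Tff3, at -1.54 ± 0.43 (unadjusted p = 0.00348), or -1.40 without the pair (unadjusted p = 0.0152). It was not called. Mki67, a proliferation marker, lay 0.47 units above that percentile and differed by 0.08 ± 0.11, and of 49 proliferation genes 3 (6.12%) were higher and 4 (8.16%) lower, near the all-gene shares. Their median was -0.04, and 0.00 without the pair. Birc5 was higher by 0.35 ± 0.11, from 0.13 units below that percentile, and Cdkn2c, a cell-cycle inhibitor, differed by -0.74 ± 0.23 (-0.47 without the pair, unadjusted p = 0.0694). Of 18 imprinted and fetal growth genes 4 (22.2%, against 8.71% of all genes) were higher and 0 lower, all without a call, and 0 passed without the pair. The median was 0.08 and then 0.07. Meg3, a maternally expressed noncoding RNA, read 7.65, 7.57, 7.10, 7.83 and 7.83 and then 7.18, 9.45, 8.66, 8.49 and 8.20. The difference was 0.80 ± 0.33, and 0.65 without the pair (unadjusted p = 0.122). Grb10, which restrains insulin signalling, was higher by 0.74 ± 0.33, and by 0.75 without the pair (unadjusted p = 0.0871). The matrix genes Col4a2 and Pdgfrb were higher by 0.84 ± 0.23 and 1.03 ± 0.28, and without the pair by 0.46 and 0.76. The 40 stellate cell and matrix genes had a median of 0.00 with 3 (7.5%) higher and 0 lower, and 0.08 with 3 higher without the pair.

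Clock transcripts such as Dbp and Arntl varied widely between mice of 1 group. Dbp, a clock output factor with a steep daily rhythm, read 5.68, 10.34, 5.45, 10.05 and 7.36 at 28 days and 4.78, 9.93, 12.23, 11.32 and 8.23 at 90 days. Both groups spanned more than 4 units, and the difference was 1.52 ± 1.34, or 0.05 without the pair, whose livers had the lowest Dbp of their group. Arntl, which encodes BMAL1 and peaks opposite to Dbp, read 8.52, 8.11, 8.65, 7.50 and 8.80 and then 9.29, 8.01, 5.72, 7.16 and 8.64. The liver with the lowest Arntl at 90 days had the highest Dbp. The list had a median of 0.38 over 24 genes, with 3 (12.5%) higher, against 8.71% of all genes. Without the pair its median was 0.10, with 0 higher. Noct, a rhythmic enzyme that feeding and fasting also regulate, read 6.11, 8.11, 7.55, 8.29 and 6.97 and then 6.64, 10.89, 8.64, 9.26 and 9.98, a difference of 1.68 ± 0.66 (1.29 without the pair, unadjusted p = 0.118). The part of the phase of the clock in any of these differences was not tested. Of the lists whose medians were not given so far, gluconeogenesis and glycolysis had 0.23 and nuclear receptors 0.14. These were 0.01 and 0.02 without the pair, and -0.01 and -0.04 with the first component as a covariate. The interferon, immediate early, heat shock, thyroid hormone, heme, fetal hepatocyte and senescence lists lay between 0.01 and 0.07, and conjugation at -0.07. Markers of fat and muscle, red blood cells, and pancreas and gut lay between -0.12 and -0.09. Without the pair these 11 lists lay between -0.10 and 0.08.

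**Figure D4:**
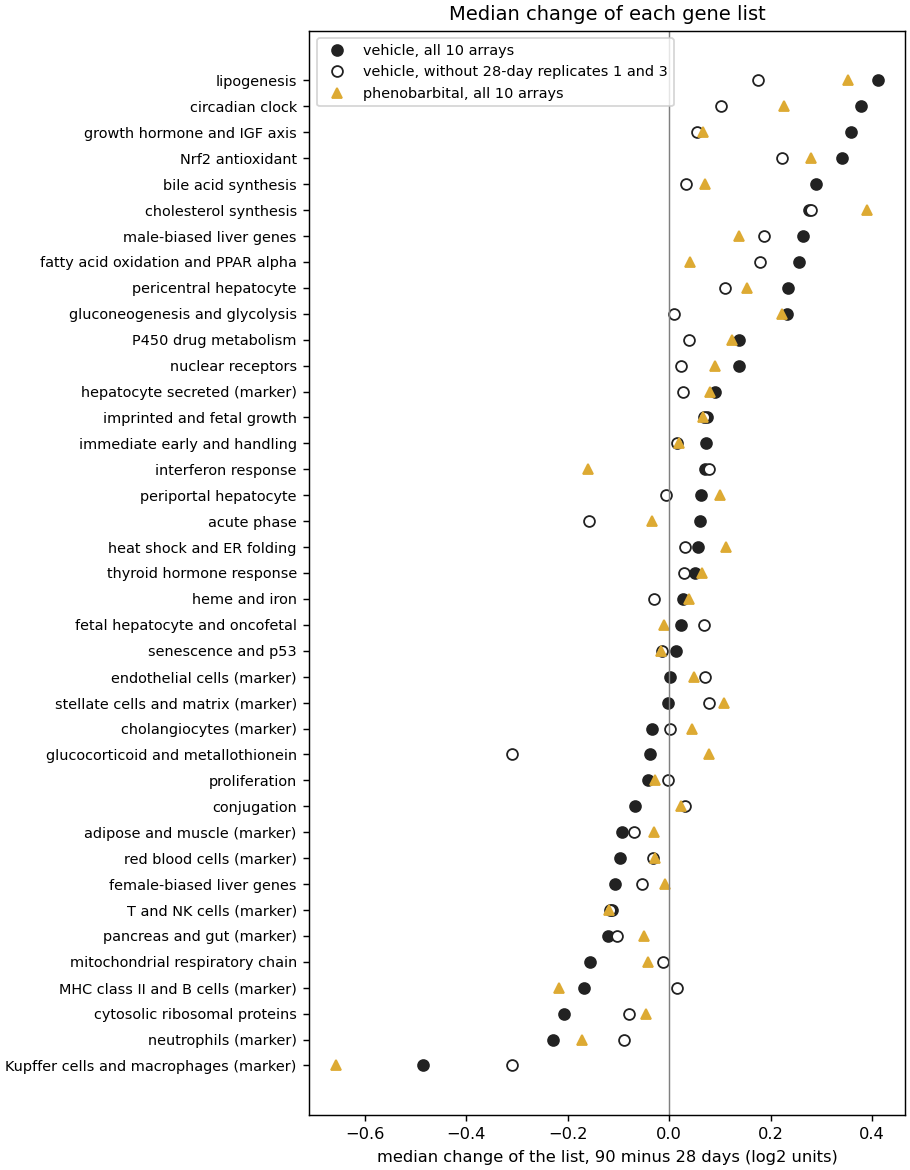
Median difference between 90 and 28 days (log2 units) for each of the 39 gene lists in vehicle livers with all arrays (filled), in vehicle livers without 28-day replicates 1 and 3 (open), and in phenobarbital livers (triangles). Lipogenesis has the highest vehicle median at 0.41 and Kupffer cells and macrophages the lowest at -0.49, and most open points lie closer to 0 than the filled ones, with cholesterol synthesis at 0.28 in both.

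For several genes single mice within a vehicle group lay further apart than the group means. The pooled within-group SD over all tested genes had a median of 0.24 and a 95th percentile of 0.57. Saa2, a serum amyloid A of the acute phase, had the largest, 2.81. It read 9.15, 7.33, 9.17, 8.40 and 14.78 at 28 days and 9.06, 8.57, 13.54, 13.54 and 8.22 at 90 days. Lcn2, which binds bacterial siderophores, read 6.58, 5.54, 5.70, 6.49 and 13.65 and then 6.31, 6.08, 10.07, 9.48 and 6.16. The same 3 mice, replicate 5 at 28 days and replicates 3 and 4 at 90 days, were high for both and for Orm2, at 12.98, 9.78 and 9.61. Of 29 acute phase genes, 0 were higher and 1 (3.45%) lower at an unadjusted p below 0.05, against 8.71% and 6.38% of all genes. The lower gene was Apcs, by 0.60 ± 0.18 on the log2 scale. The list's median turned from 0.06, with 18 means higher, to -0.16 without the pair, with 25 means lower. There 1 member was past the threshold, lower, where 1.78% of all genes were. With the first component as a covariate the median was -0.36, with 4 lower, where 1.11% of all genes were.

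Metallothioneins, which bind zinc and respond to glucocorticoids, divided the mice in another way. Mt1 read 10.16, 7.98, 7.90, 12.05 and 13.83 at 28 days and 8.11, 10.63, 12.59, 8.17 and 8.32 at 90 days, and Mt2 followed the same order at the top of each group. The glucocorticoid and metallothionein list had a median of -0.04 over 20 genes. At an unadjusted p below 0.05, 2 (10%) were higher and 1 (5%) lower, against 8.71% and 6.38% of all genes. The median moved away from 0 without the pair, to -0.31 with 17 means lower. There 4 members passed the threshold, all lower, where 1.78% of all genes did. With the first component as a covariate the median was -0.33, with 4 lower, where 1.11% of all genes were. Sgk1, a glucocorticoid-responsive kinase, differed between times with no overlap, reading 8.72, 8.62, 9.67, 8.93 and 8.80 and then 8.34, 8.16, 7.50, 8.35 and 8.53. Its difference was -0.77 ± 0.23, and -0.61 without the pair (unadjusted p = 0.0166).

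Cyp2b10, the P450 that phenobarbital induces, also varied among untreated mice. It read 6.99, 4.89, 5.85, 7.78 and 4.66 at 28 days and 7.76, 4.98, 5.31, 5.66 and 5.37 at 90 days, a difference of -0.22 ± 0.63. The highest vehicle liver was still below the lowest phenobarbital liver, which read 9.03. Hsd17b13, a lipid-droplet enzyme, read 7.54 and 7.57 in 90-day replicates 2 and 3 and between 11.01 and 12.58 in the other 8 livers. Dio1, the deiodinase that activates thyroid hormone, was lowest in the same pair of mice, at 4.60 and 4.51, but also ranged from 5.92 to 10.17 at 28 days. Moxd1 read 11.44 and 9.96 in 90-day replicates 4 and 5 and at most 7.12 elsewhere. These genes were chosen for their spread after their values were seen.

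The same durations were compared in the phenobarbital mice, which share no array with the vehicle comparison. Of 15661 genes tested 0 (0%) were called, and 409 (2.61%) passed an unadjusted p below 0.05, 185 higher (1.18%) and 224 lower (1.43%). Without 28-day replicate 5 and 90-day replicate 3 of that treatment, 300 (1.92%) were higher and 346 (2.21%) lower. Among 15491 genes tested in both, 39 were higher in both, which was 2.87% of the 1357 vehicle genes and 21.3% of the 183 phenobarbital genes. Over all 15491 genes, 1.18% were higher in phenobarbital livers and 8.76% in vehicle livers. In the lower direction 35 were shared, 3.54% of 989 and 16% of 219. Over all these genes 1.41% were lower in phenobarbital livers and 6.38% in vehicle livers. In opposite directions 1 gene passed. Across genes the vehicle and phenobarbital differences had a Pearson r of 0.584 and a Spearman rho of 0.576, genes not being independent replicates. Without 28-day vehicle replicates 1 and 3, 28-day phenobarbital replicate 5 and 90-day phenobarbital replicate 3, which lay lowest on the first component in their treatments, these were 0.423 and 0.391. Of the 74 shared genes 30 passed in both sets without these 4 arrays.

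Sterol genes and macrophage markers were among the shared genes, but most genes with the smallest p in vehicle livers were not. Adgra3 and 9030619P08Rik were shared, at 0.88 ± 0.38 and -0.52 ± 0.21 in phenobarbital livers. Glo1, Ddah1, Dhtkd1, Odr4, Etl4, Myh10, S100a8, Pf4 and Srprb did not pass there. Ddah1 and Myh10 were higher by 0.57 ± 0.67 and 0.56 ± 0.51, and Pf4 differed by -0.07 ± 0.31. Acacb also did not pass, at 0.71 ± 0.47. Fdft1 read 10.86, 11.36, 11.24, 10.62 and 10.30 at 28 days of phenobarbital and 11.61, 12.03, 11.68, 11.41 and 11.89 at 90 days, with no overlap and a difference of 0.85 ± 0.22 (unadjusted p = 0.00233). Hsd17b7, Lss, Nsdhl and Dhcr7 were higher by 0.76 ± 0.31, 1.07 ± 0.30, 0.55 ± 0.22 and 0.86 ± 0.39. The cholesterol list had a phenobarbital median of 0.39, with 9 of 22 higher and 0 lower at an unadjusted p below 0.05, against 1.18% of all genes. Acss2, Pparg, Acly and Pklr were higher by 1.13, 0.54, 0.84 and 1.17, and Pgd and Srxn1 by 0.96 and 0.62. Noct was higher by 2.54 ± 0.70 (unadjusted p = 0.00374), and Meg3 by 1.25 ± 0.49.

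All 32 macrophage markers tested had a lower mean at 90 days of phenobarbital, with a median of -0.66 and 12 lower at an unadjusted p below 0.05, against 1.43% of all genes. Without 28-day replicate 5 and 90-day replicate 3 of that treatment the median was -0.73 and 25 were lower, against 2.21%. Tyrobp and Folr2 were lower by 1.06 ± 0.48 and 0.72 ± 0.25 on the log2 scale, as were the phagocyte genes Fcna, by 1.16, and Slc11a1, by 0.41. Of the defining markers, Clec4f at -0.93 ± 0.37, C1qb at -1.03 ± 0.31 and Vsig4 at -1.26 ± 0.37 passed here. Phenobarbital values for Timd4, Adgre1 and Csf1r are not given. No marker was called as differing between the treatments. Cd68, a lysosomal glycoprotein of macrophages, read 5.24 to 6.11 and then 4.38 to 5.08, a difference of -0.95 ± 0.18 against -0.28 ± 0.25 in vehicle livers. The test of that difference between treatments gave an unadjusted p of 0.054 and an adjusted p in limma of 1.

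**Figure D5:**
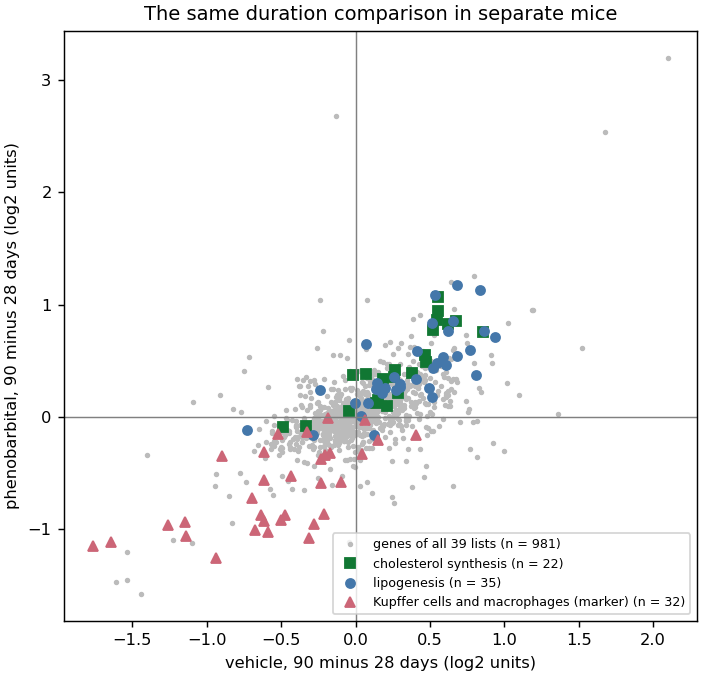
Difference between 90 and 28 days in vehicle livers (x axis) and in phenobarbital livers (y axis), both in log2 units, for the 981 tested genes of the 39 lists. Squares are cholesterol synthesis (22), circles lipogenesis (35) and triangles Kupffer cells and macrophages (32). The first 2 groups lie mostly at the upper right and the triangles mostly at the lower left, with medians of 0.28, 0.41 and -0.49 on the x axis.

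No gene's duration difference was called as unequal between the treatments. Of 16054 genes tested 0 (0%) passed the adjusted threshold and 221 (1.38%) an unadjusted p below 0.05. The smallest p was that of Sult1e1, which inactivates oestrogens by adding sulfate. Sult1e1 lay close to the 25th percentile of the array in the vehicle livers, reading 3.72 to 4.32 at 28 days and 3.83 to 4.05 at 90 days. In the phenobarbital livers it read 6.04, 6.44, 6.27, 4.36 and 6.93 and then 7.71, 8.80, 8.30, 9.71 and 8.93. The difference between the treatments was 2.81 ± 0.51 (unadjusted p = 2.1e-05, adjusted p in limma = 0.337). Next in p were Nap1l3, at -0.81 ± 0.18 in vehicle and 0.20 ± 0.17 in phenobarbital livers, and 4833438C02Rik, at -0.23 ± 0.13 and 0.44 ± 0.11, both at low intensity. Averaging the duration difference over both treatments called 0 genes. There Fdft1 had the smallest p, with an adjusted value in limma of 0.292. Without the 4 arrays that lay lowest in their treatments it also called 0, with the smallest p for Abcc4 and an adjusted value of 0.448.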

How the data were processed

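Liver RNA of 20 male mice was labelled with biotin by a 3′ in vitro transcription kit and hybridised to Affymetrix 3′ expression arrays, 1 mouse per array. The deposited values are log2 intensities that the authors computed by RMA (named in the submitters' processing notes), which summarises the probes of a set after quantile normalization. The RMA version and the genome build are not given in the sources used here. Of 45037 probe sets, 34945 had 1 gene symbol, 932 several and 9160 none, and those with several or none were left out. Entrez identifiers of 34741 were found in the RefSeq table. The probe set with the highest mean over 20 arrays stood for each of 18193 genes, and genes above the array's 25th percentile (3.96 to 4.11 over the vehicle arrays) on at least 5 of 10 arrays were tested, 15617 in all.

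The 10 vehicle arrays were fitted alone with limma 3.58.1 in R 4.3.3 (lmFit and eBayes with an intensity trend, 8 residual degrees of freedom), and p-values were adjusted by Benjamini-Hochberg over all tested genes. Phenobarbital arrays were fitted in the same way, and the difference between treatments in a fit of all 4 groups over 16054 genes. Array measures were compared by exact permutation over 252 splits. In data simulated for the vehicle comparison, 200 of 15617 genes were changed. There 83.8% of changes of 1 log2 unit and 99.1% of changes of 2 units were recovered. A mean of 7.4 and 9 unchanged genes per run were also called. Deviations from the group means were shuffled over the arrays, and all 90-day arrays were shifted equally. The rates need not hold for the real arrays, whose first component differed between the groups. They also hold only for 200 changed genes, since the Benjamini-Hochberg cut depends on how many genes change. In the real arrays Glo1, at a difference of 1.10, was not called.

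The 39 gene lists (1325 entries) and the genes examined were chosen with earlier results of these data known. The rule for named genes took all called genes of each direction up to 10, filled with uncalled genes of smallest p, the member of smallest p in each list, 20 set genes, and 3 for the difference between treatments. It gave 76 genes, and H19 and Hbb-b1 had no probe set here. Other list members, genes shared with the phenobarbital mice and genes of wide spread were picked with their values in view. The fit was repeated under other filters, probe set rules, scalings, covariates and array removals. Promoter windows came from a RefSeq table on GRCm38.p6, and figures were drawn with matplotlib 3.10.9 in Python 3.11.15.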

Additional observations from a re-analysis of the deposited data

Results flagged for a closer look

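In 7 of 156 sets of 5 values looked at, 1 array lay far from the other 4 of its group by Dixon's criterion for 5 samples (0.71), which chance alone would meet in about 1 in 20 groups. Cyp2b10 read 7.76 in 90-day vehicle replicate 1, against at most 5.66 in the rest of that group. Klf9, a glucocorticoid- and thyroid hormone-responsive factor, read 11.74 in the same liver, against at least 12.35. Hsd3b5, a male-biased steroid enzyme, read 12.26 in 90-day replicate 2, against at least 12.92. Apcs, serum amyloid P, read 13.87 in 90-day replicate 4, against at most 13.33. Alb read 15.12 in 90-day replicate 5, against at least 15.17, a gap that is small on any scale. In 28-day replicate 1 the low-intensity genes Iglv1 and 4833438C02Rik read 4.88 and 4.40, against at most 4.44 and 4.15.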

How the results depend on the processing

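No gene was called in vehicle livers under the alternatives run, with 1 exception: without 28-day replicate 2 the chemokine Cxcl14 was called, at -2.0 (adjusted p in limma = 0.0246), so removal of single arrays gave 0 higher and 0 to 1 lower. Genes at an unadjusted p below 0.05 ranged in those removals from 622 to 2046 higher and from 465 to 1708 lower, and both counts were lowest without 28-day replicate 1 (622 and 465). They were 633 and 608 without 28-day replicate 3, 764 and 639 without 90-day replicate 3, and 933 and 598 without 90-day replicate 2. They numbered 2599 and 1954 with probe sets counted singly, 326 and 587 with all 4 groups in 1 fit, and 855 and 699 with array weights. They numbered 588 and 2474 after centring on the 75th percentile, 279 and 174 with the first component as a covariate, and 295 and 278 without 28-day replicates 1 and 3, the last chosen after seeing the data. A stricter filter gave 1312 and 615, and cyclic loess 978 and 1005. The cause of these shifts was not tested.

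In phenobarbital livers Sult1e1 was called in the fit of all 4 groups (1 gene, 2.68, adjusted p in limma = 0.00546). Unadjusted counts there were 336 and 500 with probe sets singly, 314 and 365 in the fit of all 4 groups, 318 and 344 with weights, and 103 and 109 after centring. They were 710 and 508 with the first component, 300 and 346 without the low pair of arrays, 125 lower with the stricter filter, and 120 to 258 and 123 to 399 in single removals.

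Deviations of same-numbered vehicle mice correlated at 0.455, 0.121, -0.204, -0.209 and -0.0405. Whether replicate numbers pair the mice was not tested. With the replicate number as a block, 0 genes were called and 1447 higher and 1135 lower passed the unadjusted threshold.

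Of the alternatives for named genes 1701 kept the direction and 28 did not. With the first component, Vtn read -0.090, Cyp2b10 0.72, Dbp -0.92, Afp 0.21 and Cyp4a12a -0.15. Centring gave Igf1 -0.12, Mki67 -0.040, Alb -0.098 and Elovl3 -0.032. Afp was 0.037 with weights, 0.071 with loess and 0.12 without the pair, where Cyp2b10 was 0.042. Over single removals Cyp2b10 ranged from -0.70 to 0.22, Afp from -0.11 to 0.088, Igf1 from -0.031 to 0.049, Elovl3 from -0.26 to 0.58 and Mt1 from -1.58 to 0.042. Precision is limited by 5 mice a group and, for genes near the 25th percentile, by dim signal.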
